A study of Mus musculus with 9 samples.

Results

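Untreated primary Leydig cells of the mouse testis were described from the 3 control libraries of a series of 9, chosen by their treatment label. The other 6 libraries came from cells exposed to TPhP or DPhP, 3 libraries each, and were not used for any value below. All 9 libraries share the label WT and the same source, testis. The labels give the control cells no vehicle. Animal age, strain, purification, culture medium and days in culture are not stated in the labels.

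Leydig cells lie between the seminiferous tubules and make testosterone from cholesterol when luteinising hormone binds its receptor. Cholesterol enters the mitochondria with the help of STAR, is cut to pregnenolone by CYP11A1 (the cholesterol side-chain cleavage enzyme), is turned into progesterone by HSD3B enzymes, and is then carried to androgens by CYP17A1 and to testosterone by HSD17B3. Adult Leydig cells also secrete INSL3, a relaxin-like hormone, and arise from stem and progenitor cells of the interstitium that share markers with fibroblasts and pericytes.

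RNA was enriched for polyadenylated transcripts and sequenced, and the levels are FPKM, which scales fragments by transcript length and library depth, for 19058 genes. FPKM is per length, so levels of different genes can be set side by side. FPKM summed to 423984 in control 1, 428928 in control 2 and 421963 in control 3. From the steps between low values of single-exon genes, depth was estimated at 1.88e+07, 1.95e+07 and 1.89e+07 fragments in controls 1, 2 and 3. Between 63.1% and 76.6% of those values lay within 2% and the rounding of a whole fragment, against 26.1% to 29.2% from rounding alone, so the depth is approximate. Pearson correlations across genes were 0.9993 to 0.9995 on FPKM and 0.9977 to 0.9981 on log2(FPKM + 1). At most 0.671% of the genes at 1 FPKM or more had identical values in a pair of libraries, so none was counted as deposited more than once. The labels do not say that the libraries came from separate cultures or animals, so an SD here covers only how these libraries differ, and that may be technical.

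The transcriptome was broad and led by genes of translation, iron storage, matrix and lysosomes. The median gene had 4.33 FPKM, and 791 genes were listed at 0 in every library. Over the mean of the libraries, 12069 genes (63.3% of the table) reached 1 FPKM, 6732 (35.3%) reached 10 FPKM, 705 (3.7%) reached 100 FPKM and 33 (0.173%) reached 1000 FPKM. The 10 most abundant genes held 5.94% of the summed FPKM, the 100 most abundant held 23.7% and the 1000 most abundant held 58.8%. Genes between 10 and 100 FPKM held 40.7% of the sum and genes between 100 and 1000 FPKM held 40.7%. The 33 genes at 1000 FPKM or more held 12.2%. Mitochondrially encoded genes were not analysed, so these shares say nothing of their part in the libraries.

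Eef1a1, which delivers aminoacyl-tRNA to the ribosome, had the highest level, with 4668, 4807 and 4724 FPKM in controls 1, 2 and 3. Ftl1 and Fth1, the light and heavy chains of the iron store ferritin, averaged 3002 ± 17.7 and 2086 ± 63.6 FPKM (SD, n = 3, as for each mean below). Aldh1a1, which oxidises retinal to retinoic acid, ranked 3 with 2864, 2926 and 2874 FPKM. Its spread was small, and its level was 12.5 times that of Aldh1a2, a second enzyme of that step, which averaged 232 ± 3.66 FPKM. Sparc, a matrix glycoprotein, averaged 2773 ± 17.9 FPKM and ranked 4, and Col3a1, a fibrillar collagen, averaged 1929 ± 25.5 FPKM and ranked 8. The lysosomal proteases Ctsd and Ctsb completed the first 10 with 1661 ± 16.4 and 1637 ± 9.36 FPKM, beside Tpt1 at 2545 ± 51.3 FPKM and the ribosomal protein gene Rps2 at 1983 ± 43.8 FPKM.

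Among the next 20 genes, ubiquitous transcripts stood beside genes of specialised cells. Actg1 and Actb, the cytoplasmic actins, averaged 1465 ± 24.9 and 1300 ± 26.5 FPKM. Prss35, a protein of the trypsin-like serine protease family, had 1125, 1117 and 1170 FPKM. Akr1cl, an aldo-keto reductase, had 1091, 1082 and 1033 FPKM, and Gas6, a ligand of the TAM receptor kinases, had 1074, 1036 and 1025 FPKM. Each of these 3 genes varied by little between libraries. Lyz2, the lysozyme of macrophages and neutrophils, ranked 27 with 1078, 1064 and 1046 FPKM. Of the 30 highest genes, 14 had less than 90% of their 75-base stretches free of matches in other genes, with a lowest share of 39.8%, so their levels depend on how reads shared between gene copies were assigned. Cytosolic ribosomal protein genes made up 45 of the 100 highest genes and 11.6% of the summed FPKM, and 81 of their 85 members reached 1 FPKM, against the 63.3% of all genes.

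**Figure D1:**
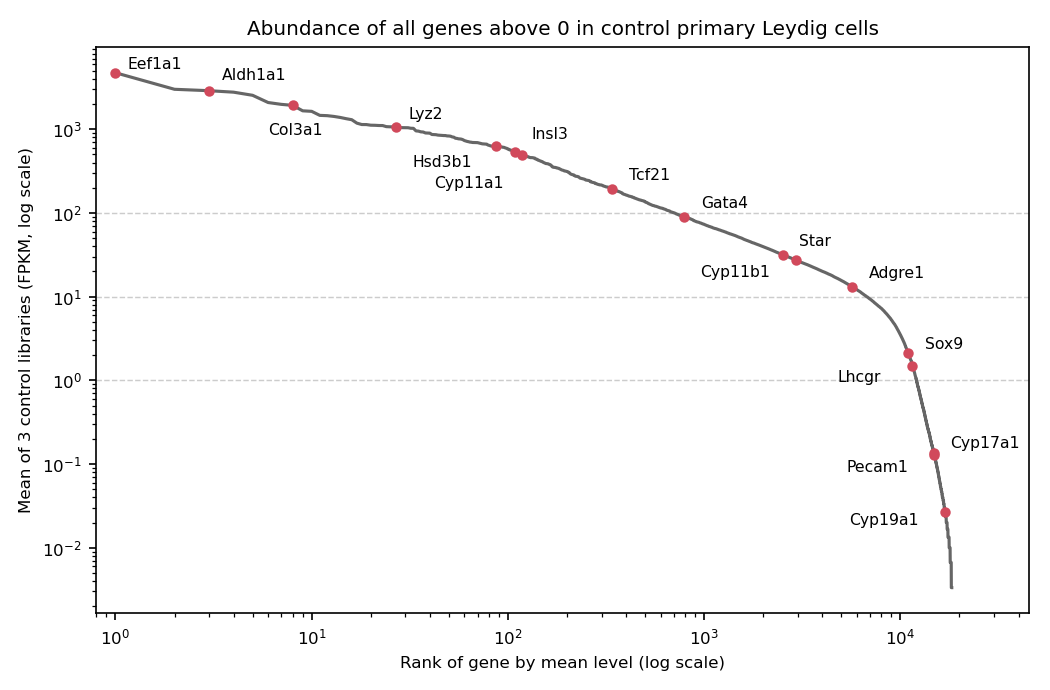
Mean FPKM of the 3 control libraries (vertical axis, log scale) for each gene above 0, by rank (horizontal axis, log scale); red points are genes named in the text and dashed lines mark 1, 10 and 100 FPKM. Hsd3b1, Insl3 and Cyp11a1 lie near rank 100, Star lies at rank 2513, and Cyp17a1 lies on the steep end of the curve at 0.137 FPKM.

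All 4 Leydig cell markers used to check the label of the cells reached 10 FPKM, a level that 35.3% of all genes reached. Other markers of adult Leydig cells, given below, ran down to 0. The level of Insl3 is limited by sequence shared with other genes, as described below. Hsd3b1 (gene 15492, chr3:98842356-98859794 in GRCm38.p6), the gonadal and adrenal form of its enzyme, had 645, 638 and 596 FPKM in controls 1, 2 and 3, and its mean of 626 ± 26.7 FPKM ranked 87. Insl3 (gene 16336, chr8:71689252-71690577) had 529, 556 and 525 FPKM and ranked 109. Cyp11a1 (gene 13070, chr9:57998024-58027031) had 497, 507 and 466 FPKM and ranked 118. These 3 markers each ranked within the first 118 genes by mean. Star (gene 20845, chr8:25808474-25815982) had 29.6, 32.1 and 33.4 FPKM and ranked 2513. Its level was lower than that of Cyp11a1 in each library, by a ratio of 13.9 to 16.8.

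Of 29 genes of the steroidogenic path, 20 (69.0%) reached 1 FPKM, close to the 63.3% of all genes, and 18 reached 10 FPKM, against 35.3% of all genes. Their median was 20.1 FPKM against 4.33 FPKM over all genes, and 31.7 FPKM over the members of at least 0.1 FPKM. Cyp11a1 and Hsd3b1 of the early steps were abundant, while Cyp17a1 and Hsd17b3 of the late steps were near or at 0. Other genes of the late steps had higher levels, given below. At the mitochondrion, Vdac1, the outer membrane channel, averaged 139 ± 0.922 FPKM, Tspo, an outer membrane protein long linked to cholesterol import, averaged 125 ± 3.91 FPKM, and Stard3, a late endosome relative of STAR, averaged 12.2 ± 0.461 FPKM. Fdx1 and Fdxr, the ferredoxin and its reductase that pass electrons to CYP11A1, averaged 138 ± 5.77 and 71.5 ± 1.98 FPKM. Hsd3b6, the second form of the HSD3B enzyme in adult mouse Leydig cells, had 25.4, 24.4 and 24.2 FPKM. Hsd3b1 was 24.7 to 26.2 times as high in the same libraries. These neighbours on chromosome 3 are close copies, and 98.6% of Hsd3b1 and 92.4% of Hsd3b6 was free of 75-base matches in other genes. Of the other HSD3B genes, Hsd3b7, which acts in bile acid synthesis, averaged 36.2 ± 0.161 FPKM, while Hsd3b3 and Hsd3b2 stood at 0.16 and 0.1 FPKM.

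Cyp17a1 (chr19:46667165-46673000), the only enzyme that carries progestins to androgens, had 0.14, 0.08 and 0.19 FPKM. At the estimated depth these values equal 6.3, 3.8 and 8.6 fragments, so each library held a trace of it and none held more. Hsd17b3 (chr13:64058274-64089262), the testis enzyme that makes testosterone from androstenedione, was listed at 0 in every library. If its longest transcript was the length used, 3 fragments would have given 0.122 FPKM. The partners of CYP17A1 were present, with Por, the reductase that supplies microsomal P450 enzymes with electrons, at 68.7, 70.2 and 73.0 FPKM and Cyb5a, the cytochrome that promotes its lyase step, at 216, 235 and 240 FPKM. Within that step only the oxygenase itself was near 0. Hsd3b1 exceeded Cyp17a1 by a ratio of 3137 to 7981, a range that rests on those few fragments. In bulk RNA, fewer cells that express a gene and less of its RNA per cell cannot be told apart.

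Members of the HSD17B family ranged from 0 to 81.0 FPKM. Hsd17b12, which acts mainly in fatty acid elongation and can also reduce steroids in the mouse, had 74.6, 81.6 and 79.1 FPKM. Hsd17b7, an enzyme of cholesterol synthesis that also reduces estrone, averaged 18.9 ± 0.191 FPKM. Hsd17b1, the estrogenic form, averaged 0.5 ± 0.0265 FPKM. In the whole family 5 of 11 members (45.5%) reached 1 FPKM, against 63.3% of all genes, led by Hsd17b10, a mitochondrial enzyme, at 81.0 ± 1.79 FPKM. Hsd17b6, which oxidises androgens, was listed at 0, and Hsd17b2 had 0, 0.04 and 0.04 FPKM.

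Enzymes that reduce androgens differed widely in level. Akr1c14, the reductase that makes androstanediol and a marker of immature Leydig cells, had 215, 210 and 224 FPKM and ranked 293. Srd5a1, the steroid reductase of immature Leydig cells, had 8.2, 6.94 and 7.43 FPKM, Srd5a2 had 1.54, 1.5 and 1.34 FPKM, and Srd5a3, which acts mainly in dolichol synthesis, averaged 20.1 ± 0.143 FPKM. Akr1cl exceeded Akr1c14 by a ratio of 4.61 to 5.14. Hsd11b1, which interconverts corticosterone and its keto form, averaged 16.8 ± 0.492 FPKM, and H6pd, which supplies its cofactor, averaged 178 ± 4.5 FPKM. Hsd11b2, which inactivates corticosterone, averaged 0.157 ± 0.0709 FPKM. Cyp19a1, the aromatase, had 0.02, 0.02 and 0.04 FPKM.

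Cyp11b1, the enzyme that makes corticosterone in the adrenal cortex, had 26.5, 28.1 and 26.9 FPKM, close to the level of Star. The other adrenal markers did not share that level. Cyp21a1, which acts before it in the adrenal path, averaged 0.0467 ± 0.0569 FPKM, Cyp11b2, the aldosterone synthase, averaged 0.0267 ± 0.0252 FPKM, Mc2r, the corticotropin receptor, averaged 0.107 ± 0.0503 FPKM, and Akr1b7 averaged 0.193 ± 0.137 FPKM. Of Cyp11b1, 92.9% was free of 75-base matches in other genes and 9.0% of its exon bases lay opposite exons of Gml2; whether the counting used strand is not stated.

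**Figure D2:**
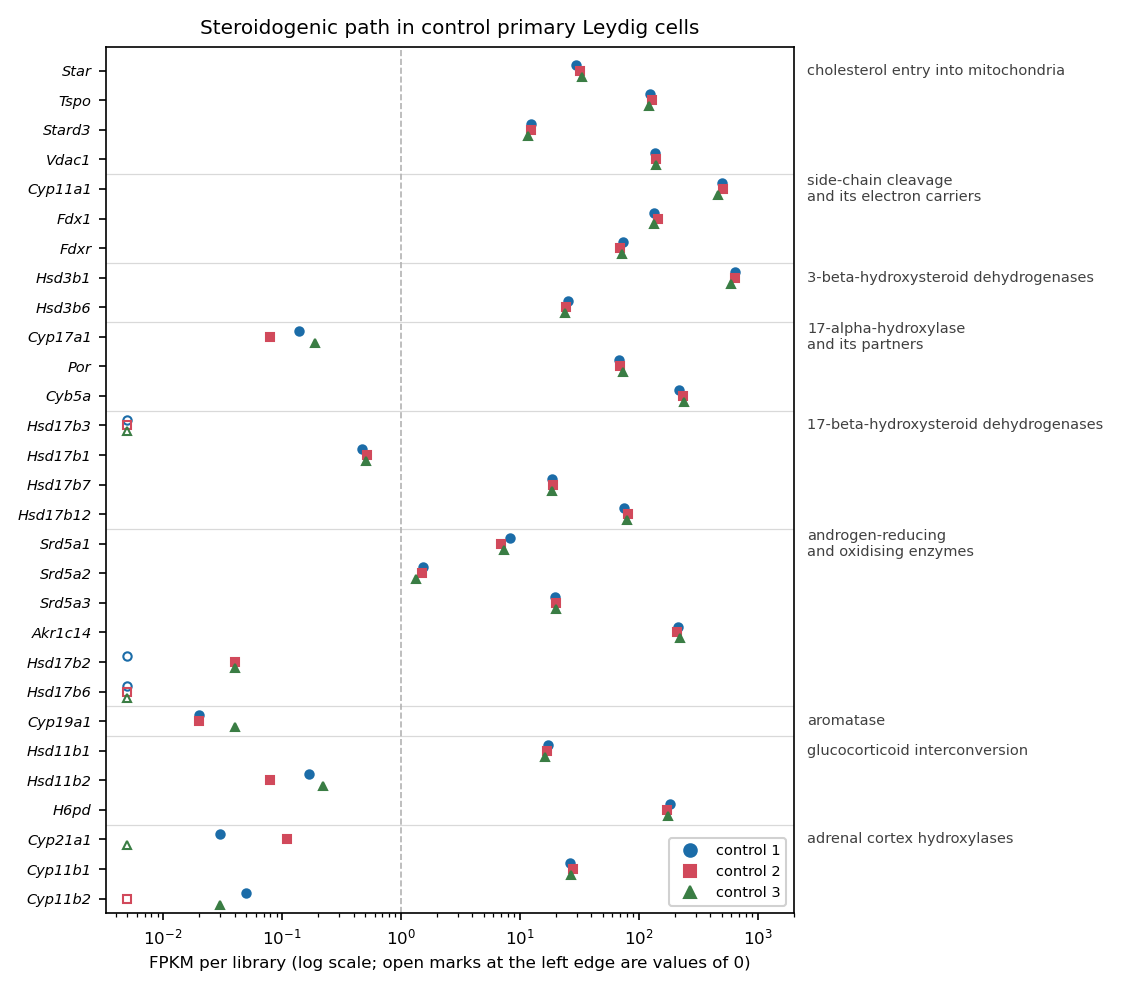
FPKM (log scale) of each steroidogenic gene in control 1 (blue circles), control 2 (red squares) and control 3 (green triangles), grouped by step, with a dashed line at 1 FPKM and open marks for values of 0. The libraries lie on top of each other for the early steps, while Cyp17a1 spreads between 0.08 and 0.19 FPKM and Hsd17b3 is at 0.

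The promoters of the markers that stood highest and of Hsd3b6 and Hsd17b3, which lie lower on the same path, are shown so that the starts of abundant and unlisted genes can be read together. Each holds 250 bases before and 50 after the start in RefSeq for GRCm38.p6, from 5′ to 3′ of the gene's strand, with AGGTCA in capitals, the letters that many nuclear receptors bind, NR5A1 among them. They are Hsd3b1 (chr3:98859745-98860044, minus strand), Hsd3b6 (chr3:98814394-98814693, minus strand), Cyp11a1 at the downstream of its annotated starts (chr9:58014702-58015001, plus strand), Insl3 (chr8:71689002-71689301, plus strand) and Hsd17b3 (chr13:64089152-64089451, minus strand).
Hsd3b1: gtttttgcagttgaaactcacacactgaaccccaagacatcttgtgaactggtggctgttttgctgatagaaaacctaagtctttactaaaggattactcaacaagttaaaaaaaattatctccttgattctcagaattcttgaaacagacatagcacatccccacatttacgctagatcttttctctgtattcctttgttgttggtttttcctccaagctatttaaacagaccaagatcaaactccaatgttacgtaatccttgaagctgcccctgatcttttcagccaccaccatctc
Hsd3b6: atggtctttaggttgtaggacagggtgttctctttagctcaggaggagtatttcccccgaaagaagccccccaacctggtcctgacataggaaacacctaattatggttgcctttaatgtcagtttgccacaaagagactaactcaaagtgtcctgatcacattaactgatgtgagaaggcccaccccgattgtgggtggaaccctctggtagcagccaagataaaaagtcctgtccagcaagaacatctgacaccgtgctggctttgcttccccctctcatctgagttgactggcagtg
Cyp11a1: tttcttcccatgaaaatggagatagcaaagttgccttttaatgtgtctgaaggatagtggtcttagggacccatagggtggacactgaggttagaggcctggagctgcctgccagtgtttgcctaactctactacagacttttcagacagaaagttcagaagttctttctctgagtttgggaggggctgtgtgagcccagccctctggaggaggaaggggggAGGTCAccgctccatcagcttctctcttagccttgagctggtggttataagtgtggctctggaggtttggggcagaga
Insl3: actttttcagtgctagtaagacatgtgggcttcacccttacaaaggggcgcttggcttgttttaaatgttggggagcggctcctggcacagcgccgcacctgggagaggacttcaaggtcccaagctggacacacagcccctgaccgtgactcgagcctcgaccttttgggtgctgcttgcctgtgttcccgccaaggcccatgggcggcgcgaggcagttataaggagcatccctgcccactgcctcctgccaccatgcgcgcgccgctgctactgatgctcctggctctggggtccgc
Hsd17b3: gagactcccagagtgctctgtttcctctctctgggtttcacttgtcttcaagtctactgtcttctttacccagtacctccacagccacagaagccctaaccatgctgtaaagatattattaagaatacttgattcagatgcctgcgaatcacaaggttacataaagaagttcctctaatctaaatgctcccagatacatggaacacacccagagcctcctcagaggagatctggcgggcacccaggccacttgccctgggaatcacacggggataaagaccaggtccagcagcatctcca
GC content was 38.7% in the Hsd3b1 window, 49.0% in Hsd3b6, 51.0% at that start of Cyp11a1, 61.3% in Insl3 and 48.7% in Hsd17b3, and the windows held 2, 3, 1, 16 and 3 CpG dinucleotides in that order. The window at the upstream start of Cyp11a1 (chr9:57997774-57998073, plus strand) held 58.3% GC, 7 CpG dinucleotides and no such match. On either strand, AGGTCA was found at the downstream start of Cyp11a1 and in the window of Lhcgr, in 5 of 24 promoters of the steroidogenic path (20.8%) and in 14.4% of all 18741 promoters in the table. TATAAA on either strand was found in 2 of these 24 (8.33%) and in 9.43% of all. A match is a description of letters and not a binding site.

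Over all genes, promoters changed in base composition with the level of the gene. The median promoter held 5 CpG dinucleotides and 51.0% GC for genes below 0.1 FPKM, 8 and 54.3% from 0.1 to 1 FPKM, 18 and 59.3% from 1 to 10 FPKM, 22 and 61.7% from 10 to 100 FPKM, and 21 and 61.0% at 100 FPKM and over. The 24 promoters of the steroidogenic path, which cover 19 of its 29 genes, had a median of 6.5 CpG dinucleotides and 53.3% GC. Shares with TATAAA were 16.4% below 0.1 FPKM, 6.08% from 10 to 100 FPKM and 11.3% at 100 FPKM and over.

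Genes that supply the path with cholesterol were all present. Each of 33 such genes reached 1 FPKM and 31 reached 10 FPKM, with a median of 45.2 FPKM, against 63.3% and 35.3% of all genes at these levels. All 20 synthesis genes lay between 14.3 and 205 FPKM, led by Msmo1, a demethylating oxidase of the late path, with 205, 213 and 199 FPKM and Hmgcs1, which makes HMG-CoA, with 180, 179 and 184 FPKM. Among uptake receptors, Lrp1 had 174, 156 and 171 FPKM and Scarb1, the receptor for high-density lipoprotein, averaged 60.5 ± 0.451 FPKM. Abca1, the exporter of cholesterol to lipoproteins, was the highest gene of the list with 277, 265 and 280 FPKM. Plin2, a coat protein of lipid droplets, averaged 97.9 ± 3.84 FPKM, Lipa, the lysosomal cholesteryl ester hydrolase, averaged 95.9 ± 1.51 FPKM and Soat1, which esterifies cholesterol, averaged 87.5 ± 0.564 FPKM. Lipe, the hormone-sensitive lipase that releases cholesterol from droplets, was the lowest with 4.1, 4.47 and 3.91 FPKM.

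Markers of adult Leydig cells ranged widely, from a mean of 0 to 537 FPKM, with 1 at 100 FPKM or more. Of 10 markers, 7 (70%) reached 1 FPKM, close to the 63.3% of all genes, and 5 reached 10 FPKM, against 35.3%. Their median was 9.39 FPKM. Insl3 was the highest, and it is also the least certain, since 39.9% of it was free of 75-base matches in other genes and 64.8% of its exon bases lay in exons of Jak3 on the same strand. Jak3 itself had 4.16, 3.55 and 4.09 FPKM, far below Insl3 in every library. Lhcgr (chr17:88716384-88792059), the receptor through which luteinising hormone acts, had 1.62, 1.51 and 1.38 FPKM, near the 1 FPKM line but at an estimated 178 to 208 fragments a library. Insl3 exceeded it by a ratio of 327 to 380.

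Prlr, the prolactin receptor, had 51.4, 43.4 and 50.4 FPKM, 28.7 to 36.5 times the level of Lhcgr. Vcam1, an adhesion molecule of adult Leydig cells that also responds to inflammation, had 58.2, 64.8 and 56.0 FPKM. Ptgds, the prostaglandin D synthase of adult Leydig cells, had 1.84, 3.03 and 1.1 FPKM, the widest relative spread among the markers above 1 FPKM. Sult1e1, which sulphates estrogens, had 0.16, 0 and 0.12 FPKM and joined Cyp17a1 and Hsd17b3 below 1 FPKM. Thus 3 late markers of adult cells were at trace level or listed at 0 in each library.

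Markers of stem and progenitor Leydig cells were widely present, with 10 of 11 at 1 FPKM, 9 at 10 FPKM and a median of 26.8 FPKM. Over all genes, 63.3% reached 1 FPKM and 35.3% reached 10 FPKM. The markers were chosen with earlier results of these data known, so their share may partly reflect that choice. Tcf21, a helix-loop-helix factor of interstitial progenitors, had 199, 195 and 189 FPKM, Pdgfra, the receptor for PDGF-A, had 179, 183 and 179 FPKM, and Ly6a, the Sca-1 antigen, had 162, 162 and 149 FPKM. The spread of each was below 5% of its mean. Itgav, an integrin chain, averaged 38.0 ± 1.34 FPKM, Nr2f2, a nuclear receptor of progenitors, averaged 33.9 ± 0.804 FPKM, Lifr averaged 21.3 ± 0.667 FPKM, Pdgfrb averaged 20.3 ± 0.572 FPKM, Kit averaged 12.2 ± 0.269 FPKM and Nes, the filament protein nestin, averaged 5.09 ± 0.343 FPKM. Thy1 was the member below the line, with 0.56, 0.76 and 0.38 FPKM. Several of these genes are also expressed by fibroblasts and pericytes, and Pdgfra, Thy1 and Pdgfrb stand in the lists of those cells too. Of 3 markers of fetal Leydig cells, Thbs2, a matrix thrombospondin, had 149, 149 and 150 FPKM, Dlk1 had 5.6, 5.92 and 4.79 FPKM, and Mc2r was near 0.

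Transcription factors of the lineage were present at moderate levels. Of 19, 16 (84.2%) reached 1 FPKM, against 63.3% of all genes, and 11 reached 10 FPKM, against 35.3%. Their median was 11.1 FPKM. Gata4, which with NR5A1 drives steroidogenic promoters, had 90.7, 91.2 and 88.1 FPKM, and Nr5a1 (SF-1) had 49.4, 49.4 and 47.9 FPKM. Tcf21 was 3.95 to 4.03 times as high as Nr5a1. Gata6, the other gonadal GATA factor, averaged 0.807 ± 0.0603 FPKM, and Gata4 exceeded it by a ratio of 101 to 122. Nr0b1 (DAX-1), a repressor of NR5A1, was the lowest factor with 0.06, 0.03 and 0.06 FPKM.

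The remaining factors included Cebpb at 75.1, 85.5 and 74.1 FPKM, highest in control 2, and Mef2d and Mef2a at 22.8 ± 0.41 and 18.8 ± 0.376 FPKM. Lhx9, a homeobox gene of the early gonad and of progenitors, averaged 12.6 ± 0.556 FPKM. Wt1, a factor of Sertoli and mesothelial cells that early progenitors share, averaged 9.88 ± 0.405 FPKM. Creb1, through which cyclic AMP acts, averaged 8.69 ± 0.339 FPKM and its relative Crem averaged 3.59 ± 0.415 FPKM. Of the NR4A family, which luteinising hormone induces, Nr4a1 had 7.19, 5.97 and 6.35 FPKM, above the median level of all genes. Nr4a3 averaged 0.8 ± 0.105 FPKM. Outside that family, Nr2f1 averaged 1.25 ± 0.144 FPKM.

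**Figure D3:**
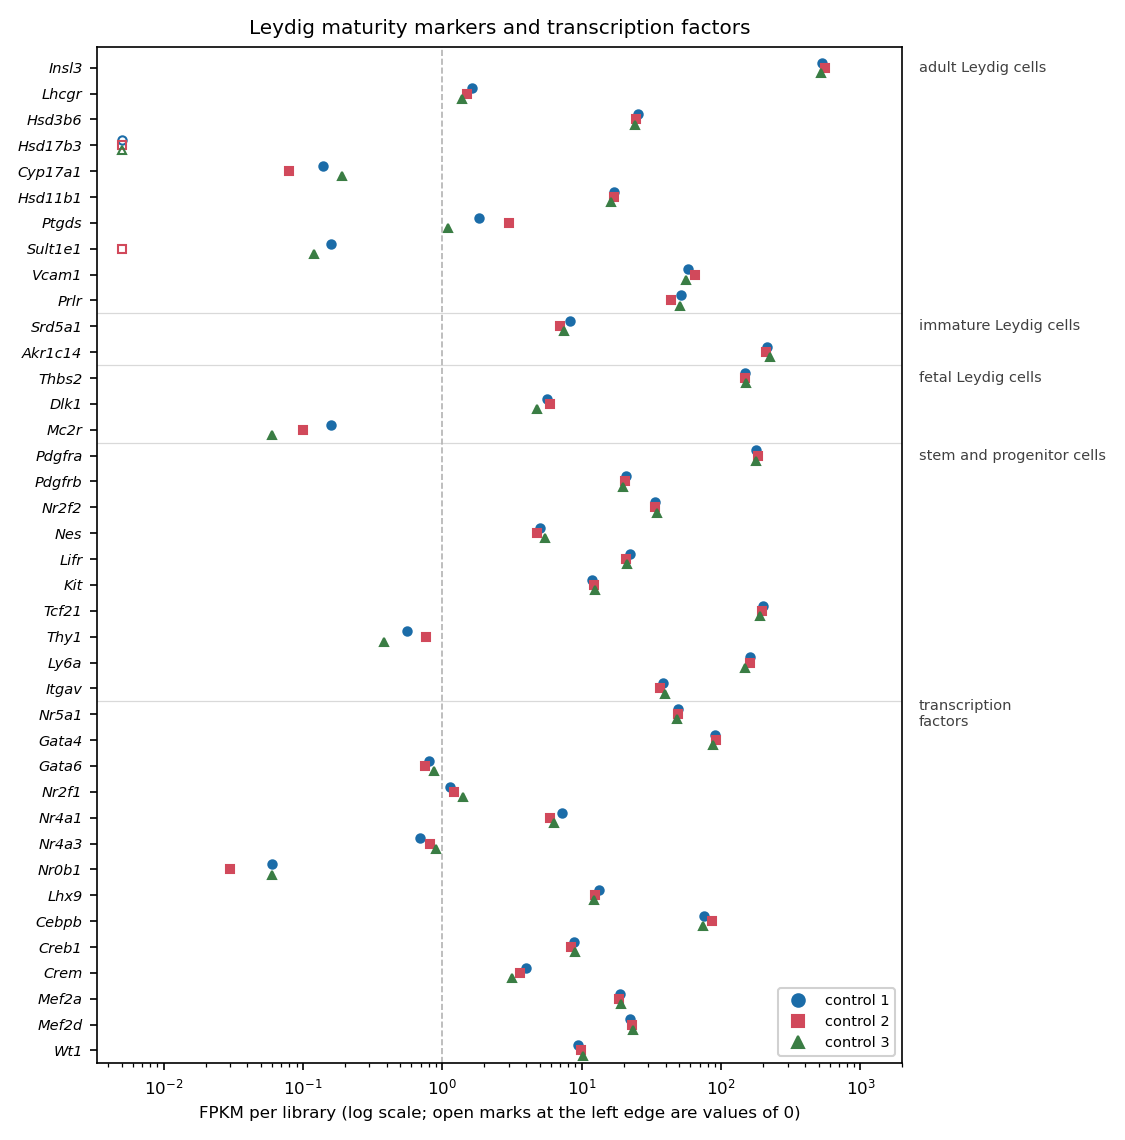
FPKM (log scale) of Leydig maturity markers and transcription factors in control 1 (blue circles), control 2 (red squares) and control 3 (green triangles), grouped by stage, with a dashed line at 1 FPKM and open marks for values of 0. Stem and progenitor markers other than Thy1 lie to the right of the line, while adult markers run from 0 for Hsd17b3 to above 500 FPKM for Insl3.

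Transcripts of many hormone and growth factor receptors were present, though which cells carried them was not tested. Of 41 hormone and growth factor receptors, 33 (80.5%) reached 1 FPKM, against 63.3% of all genes, and 25 reached 10 FPKM, against 35.3%. Their median was 13.0 FPKM. Pdgfra was highest, followed by Tgfbr3, the betaglycan that presents inhibin and TGF-beta, at 106, 103 and 109 FPKM, Egfr at 49.8, 49.3 and 50.4 FPKM, and Prlr. Among pituitary hormone receptors, Fshr, the follicle-stimulating hormone receptor of Sertoli cells, averaged 0.05 ± 0.0361 FPKM. Its level was at trace, as was that of the G-protein estrogen receptor Gper1 at 0.0967 ± 0.0737 FPKM, and Rxrg averaged 0.0667 ± 0.0351 FPKM. Among steroid receptors, Esr1, the main estrogen receptor of Leydig cells, averaged 27.1 ± 1.04 FPKM and Nr3c1, the glucocorticoid receptor, averaged 24.1 ± 0.763 FPKM. Esr2 and Nr3c2, the second estrogen receptor and the mineralocorticoid receptor, lay below 1 FPKM, at 0.257 ± 0.0961 and 0.447 ± 0.0416 FPKM.

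Secreted factors reached 1 FPKM in 21 of 25 cases, against 63.3% of all genes, with a median of 10.4 FPKM. After Insl3, the highest were Csf1, the growth factor of macrophages, with 149, 162 and 164 FPKM, Cxcl12, a chemokine of stromal cells, with 105, 105 and 106 FPKM, and Inhbb, a chain of inhibin and activin, with 66.3, 65.1 and 61.9 FPKM. Of the binding proteins of insulin-like growth factors, 5 of 7 reached 1 FPKM, with Igfbp7 at 726, 712 and 644 FPKM, Igfbp4 at 348 ± 2.39 FPKM and Igfbp6 at 258 ± 8.65 FPKM.

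Spermatid and spermatocyte transcripts were detected in each library, and the sums of both lists were highest in control 1. Of 14 spermatid genes, 9 (64.3%) reached 1 FPKM, near the 63.3% of all genes, and none reached a mean of 10 FPKM. Prm1 and Prm2, the protamines that replace histones in sperm, had 12.2, 7.9 and 6.25 FPKM and 13.4, 8.27 and 5.46 FPKM. Tnp2, a transition protein, had 7.14, 3.07 and 3.18 FPKM, and Tnp1 had 3.29, 3.54 and 2.9 FPKM. The list summed to 51.2, 31.8 and 25.5 FPKM, and 8 of the 9 genes at 1 FPKM or more were highest in control 1, as were 33.6% of all genes at that level. Of 11 spermatocyte genes, 3 reached 1 FPKM, and without control 1 the count was 1. Ldhc, the germ cell lactate dehydrogenase, had 9.37, 4.55 and 2.55 FPKM, and the list summed to 14.9, 8.85 and 5.91 FPKM. Of 13 spermatogonial genes, 3 reached 1 FPKM, Zbtb16 at 5.39 ± 0.16 FPKM, Uchl1 at 1.81 ± 0.278 FPKM and Ddx4, a helicase of germ cells, at 1.28 ± 0.304 FPKM. This list summed to 11.8, 11.1 and 11.9 FPKM with no library apart from the others.

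Sertoli cell genes were low at the defining markers. Of 12, 7 (58.3%) reached 1 FPKM, near the 63.3% of all genes. Their median of 2.11 FPKM was below the 4.33 FPKM of all genes. Sox9, the Sertoli cell determinant, had 2.2, 2.08 and 2.06 FPKM, Amh, the anti-Müllerian hormone, had 0.12, 0.06 and 0.27 FPKM, and Rhox5 averaged 0.207 ± 0.0902 FPKM. The higher members Inhbb and Wt1 are also expressed in the interstitium and stand in other lists used here. Aard averaged 9.18 ± 0.694 FPKM and Cldn11, a tight junction protein of Sertoli cells, had 6.95, 5.6 and 5.58 FPKM.

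Macrophage genes were detected in each library. Of 16, 14 (87.5%) reached 1 FPKM, against 63.3% of all genes, and 11 reached 10 FPKM, against 35.3%. Their median was 18.7 FPKM, and the list summed to 1579, 1574 and 1562 FPKM. Besides Lyz2, Tyrobp, an adaptor of myeloid receptors, had 161, 158 and 156 FPKM, Cd68, a lysosomal glycoprotein, had 114, 117 and 122 FPKM, and Fcer1g had 57.5, 64.9 and 62.9 FPKM. The sums differed by little between libraries, but Lyz2, at a mean of 1063 FPKM, made up most of the mean sum of 1572 FPKM. Cd68 was lowest in control 1, where Tyrobp was highest. No member that reached 10 FPKM was confined to a single library. Defining surface receptors were lower than Lyz2, with Csf1r at 30.8, 31.7 and 32.1 FPKM and Adgre1 (F4/80) at 13.2, 14.0 and 12.5 FPKM, so that Lyz2 exceeded Csf1r by a ratio of 32.6 to 35.1. Cd163 was the lowest member with 0.29, 0.14 and 0.08 FPKM, beside Fcgr1 at 0.737 ± 0.134 FPKM. Mmp12, the macrophage elastase, had 826, 870 and 837 FPKM and ranked 46. How much of any level in the bulk libraries came from macrophages was not tested.

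Lymphocyte, mast cell and most endothelial genes lay below 1 FPKM, with exceptions in Cd4 and Cdh5, while globins of red blood cells were above it. Of 9 lymphocyte genes, only Cd4, which mouse macrophages can also carry, reached 1 FPKM, at 2.12 ± 0.196 FPKM, and Cd3g and Nkg7 were listed at 0. None of 4 mast cell genes reached 1 FPKM, the highest being Cpa3 at 0.107 ± 0.0289 FPKM. Of 12 endothelial genes, 1 reached 1 FPKM: Cdh5, the cadherin of endothelial junctions, had 10.2, 9.41 and 9.27 FPKM. Pecam1, at 0.127 ± 0.0321 FPKM, and Tie1, at 0.0167 ± 0.0115 FPKM, did not share its level, and Cldn5 was listed at 0. Of 7 red blood cell genes, 4 (57.1%) reached 1 FPKM, near the 63.3% of all genes. All 4 were globins, and the list summed to 24.3, 32.3 and 19.3 FPKM. Hbb-bs, an adult beta globin, had 9.1, 15.0 and 7.77 FPKM, with 48.5% of it free of 75-base matches in other genes.

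Contractile and stromal genes were abundant, with the most restricted smooth muscle markers low. Of 11 peritubular myoid genes, 9 (81.8%) reached 1 FPKM, against 63.3% of all genes, and 6 reached 10 FPKM. Their median was 10.2 FPKM. Acta2, smooth muscle actin, had 326, 355 and 370 FPKM, Tagln, an actin-binding protein that fibroblasts in culture also express, had 262, 265 and 287 FPKM, and Tpm2, a tropomyosin, had 145, 158 and 157 FPKM. Myh11, the smooth muscle myosin, had 1, 1.16 and 1.28 FPKM and Des, desmin, had 0.66, 0.61 and 0.53 FPKM. Of the 9 genes, 7 were highest in control 3, against 31.4% of all genes at 1 FPKM or more, by small margins. Of 12 fibroblast genes, 11 reached 1 FPKM, with a median of 20.5 FPKM: Col3a1, Col1a2 at 766 ± 16.1 FPKM, Dcn, the proteoglycan decorin, at 532 ± 9.2 FPKM, and Col1a1 at 476 ± 7.2 FPKM. Markers of adventitial fibroblasts were low, with Pi16 at 1.25 ± 0.0981 FPKM and Dpt at 8.45 ± 0.603 FPKM. Of 6 pericyte genes, 5 reached 1 FPKM, led by Pdgfrb, while Rgs5 averaged 0.04 ± 0.03 FPKM.

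The lists of further cell types were short, so their shares are coarse. From 0% (adipocytes) to 60% (ovarian granulosa) of members reached 1 FPKM, a level that 63.3% of all genes reached. Of 6 epithelial genes, 2 did, Krt18 at 2.72, 1.83 and 1.22 FPKM and Krt8 at 2.26, 1.86 and 1.16 FPKM, with Epcam at 0.53 ± 0.149 FPKM. Of 4 mesothelial genes, 2 did, Wt1 and Msln, the gene of mesothelin, which averaged 2.84 ± 0.24 FPKM, while Upk3b averaged 0.1 ± 0.05 FPKM. Of 4 Schwann cell genes, 2 did, led by S100b at 7.71 ± 0.224 FPKM, while Sox10, which defines the lineage, was listed at 0. None of 3 adipocyte genes did, and Adipoq was listed at 0. Among 5 genes of ovarian granulosa cells, 3 did, led by Wnt4 at 19.7 ± 0.625 FPKM, while Foxl2, the granulosa determinant, averaged 0.0933 ± 0.0416 FPKM. Cyp11b1 was the only 1 of 5 adrenal cortex genes to do so.

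**Figure D4:**
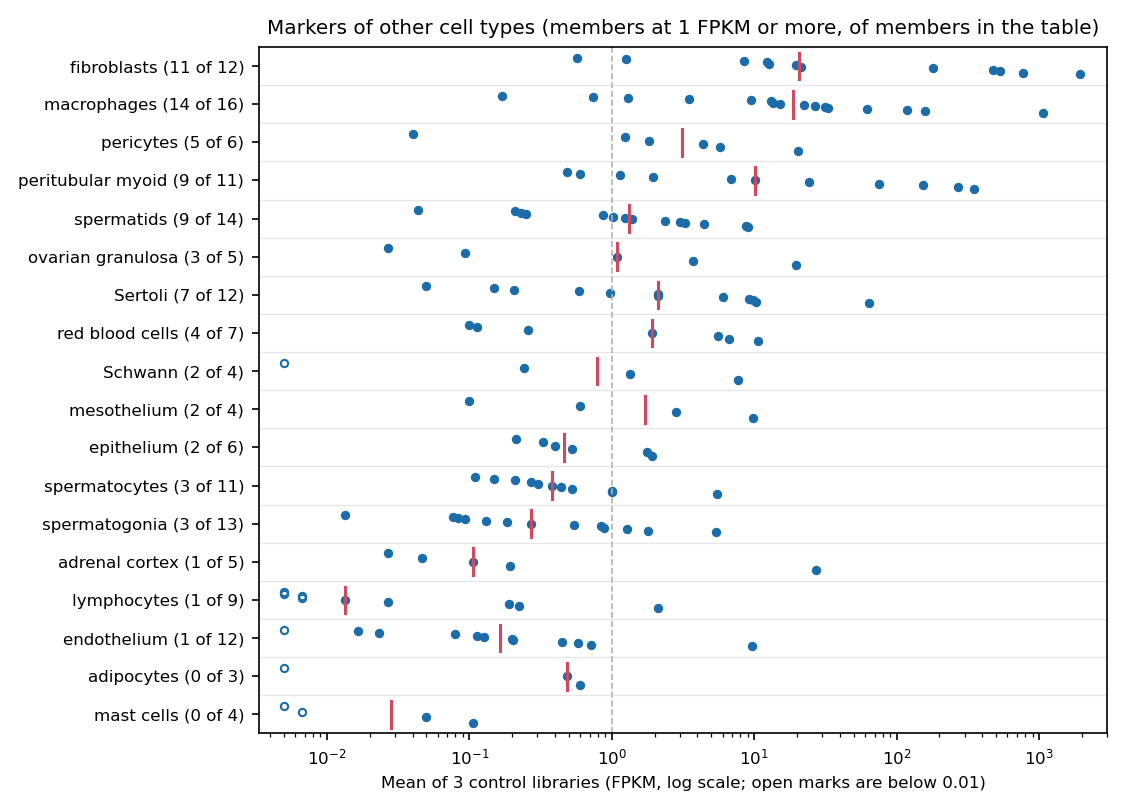
Mean FPKM over the 3 control libraries (log scale) of markers of 18 other cell types; each blue point is a gene, red bars are list medians, the dashed line marks 1 FPKM and open points lie below 0.01 FPKM. Fibroblast and macrophage medians lie near 20 FPKM, while the medians of endothelium, lymphocytes and mast cells lie below 1 FPKM.

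Many matrix, cytoskeleton and lysosome genes were above 100 FPKM. Members of these lists, as of all lists here, were chosen with earlier results of these data known, so their shares may partly reflect that choice. Of 31 genes of matrix and its remodelling, 30 reached 1 FPKM and 21 reached 100 FPKM, against 3.7% of all genes, and together they held 2.54% of the summed FPKM. Timp1, an inhibitor of metalloproteases, had 593, 620 and 613 FPKM, and Col4a1, a basement membrane collagen, had 461, 444 and 468 FPKM. Mmp9 was the member below the line with 0.11, 0.08 and 0.06 FPKM. All 22 cytoskeleton and adhesion genes reached 10 FPKM and 21 reached 100 FPKM, holding 2.99% of the summed FPKM, among them Vim, the filament protein of mesenchymal cells, at 1025 ± 6.76 FPKM. In the list of endosome and lysosome genes, 16 of 18 reached 100 FPKM and the list held 2.19% of the summed FPKM, led by Ctsd, Ctsb and Psap, the saposin precursor, and followed by Ctsl at 956 ± 15.1 FPKM, while Ctsk, the cathepsin of osteoclasts, averaged 0.39 ± 0.03 FPKM.

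Iron and redox genes were present throughout, and the lists of detoxifying genes ranged from abundant to near 0. All 27 iron and redox genes reached 1 FPKM and 12 reached 100 FPKM, against 63.3% and 3.7% of all genes. Prdx1, a peroxiredoxin, had 691, 729 and 687 FPKM, and Gpx1, Gpx3 and Gpx4, glutathione peroxidases, averaged between 305 and 313 FPKM. Of 15 conjugating genes 12 reached 1 FPKM, led by Gstm1 with 692, 741 and 697 FPKM and Gstm2 with 689, 727 and 660 FPKM, both glutathione S-transferases. Of 22 genes of oxidation and ester cleavage, 10 did, with a median of 0.478 FPKM. Ephx1, the microsomal epoxide hydrolase, led them at 215 ± 3.8 FPKM, while Cyp1a1, which the aryl hydrocarbon receptor induces, had 0.02, 0.02 and 0.04 FPKM. Of 76 P450 genes 19 reached 1 FPKM and only Cyp11a1 reached 100 FPKM. Next in level were Cyp27a1, a mitochondrial sterol hydroxylase, at 47.3 ± 1.61 FPKM and Cyp1b1, another target of the aryl hydrocarbon receptor, at 33.8 ± 2.14 FPKM. Of 16 carboxylesterase genes 2 reached 1 FPKM, led by Ces2g at 9.76 ± 0.35 FPKM, and without control 3 the count was 1.

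Genes of dividing cells were present in every library. All 22 proliferation genes reached 1 FPKM and 19 reached 10 FPKM, against 63.3% and 35.3% of all genes. Their median was 20.7 FPKM. Pcna, the replication clamp, had 116, 118 and 109 FPKM, Mcm6, a helicase subunit, had 37.9, 40.9 and 38.0 FPKM, Top2a had 35.9, 36.3 and 36.4 FPKM, and Mki67 averaged 24.5 ± 0.775 FPKM. The share of cells in division cannot be read from these levels, since bulk RNA mixes all cells. All 7 cyclin-dependent kinase inhibitors reached 1 FPKM as well, led by Cdkn1a (p21) at 29.8 ± 0.607 FPKM. Of 21 immediate early genes 16 reached 1 FPKM, led by Fosl2 at 78.6 ± 0.745 FPKM and Egr1 at 66.2, 70.3 and 73.8 FPKM.

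The libraries agreed closely for most genes, with a few groups apart. The median coefficient of variation was 3.93% over the 12069 genes at 1 FPKM or more and 2.98% over those at 10 FPKM or more, and the 90th percentile over the 12069 genes was 10.7%. The highest library exceeded the lowest by more than a ratio of 2 for 102 genes at 1 FPKM and for 4 genes at 10 FPKM. Besides the germ cell lists, inflammatory genes differed between libraries. Of the 12 that reached 1 FPKM, 11 were highest in control 2, as were 35% of all genes at that level. Under both rescalings tried the count was also 11. These lists were chosen with earlier results of these data known, and genes are not independent replicates, so the counts are descriptions. The next 4 genes were named because they were among the 10 most variable at 10 FPKM or more. Ccl2, a monocyte chemokine, had 19.6, 47.1 and 22.2 FPKM, Ccl7, its neighbour on chromosome 11, had 7.2, 15.6 and 7.29 FPKM, Saa3, an acute-phase protein, had 58.3, 102 and 67.8 FPKM, and C3, a complement component outside that list, had 29.6, 44.2 and 31.5 FPKM. Control 2 was the high library in each case, and the other 2 libraries lay close together. The list summed to 214, 319 and 220 FPKM. Il6 had 0.24, 0.45 and 0.19 FPKM and Il1b had 0, 0.15 and 0 FPKM, both cytokines highest in control 2 but near the level of a few fragments, and Nos2, the inducible nitric oxide synthase, was listed at 0 in every library. Of 27 collagen genes 20 were highest in control 3, against 31.4% of all genes at 1 FPKM or more, but the family summed to 4986, 4867 and 4984 FPKM and Col3a1, its largest member, was highest in control 1. What set the libraries apart in these groups was not tested.

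**Figure D5:**
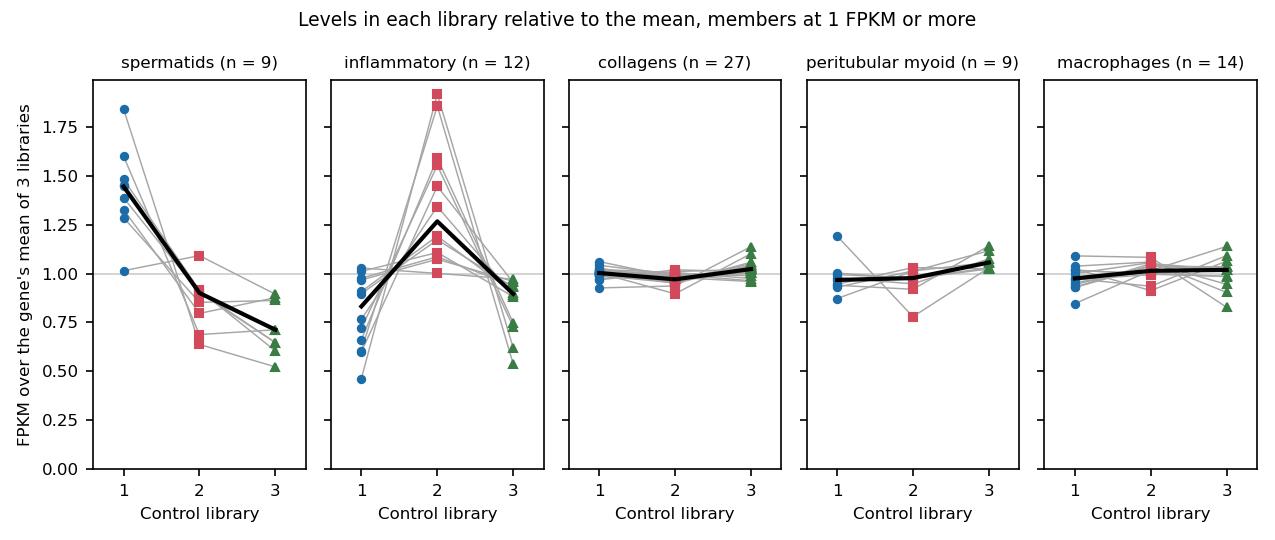
FPKM in each control library divided by the gene's mean over the libraries (vertical axis, from 0), for spermatid, inflammatory, collagen, peritubular myoid and macrophage genes at 1 FPKM or more; points and thin lines are single genes and the black line is the median. Most spermatid genes are highest in control 1 and most inflammatory genes in control 2, while the medians of the other groups stay near 1.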

How the data were processed

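The authors deposited FPKM values to 2 decimals for 19058 genes with Entrez identifiers and symbols, and the 3 control columns were used as deposited. The build, GRCm38.p6, is named per the submitters' processing notes. Aligner, counting tool, annotation, strand setting and gene filter: not given in the sources used here. Depth is not stated; it was estimated from steps in values below 0.25 FPKM of 299 single-exon genes of 300 to 1600 bases, a step tested on simulated data, and bounds use 3 fragments. They cover counting error only.

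Genes were ranked by mean FPKM, and no test was run because no groups were compared. In all, 35 lists (524 of 530 members in the table) and 17 families defined by symbol were counted at 1, 10 and 100 FPKM. Members and lists were chosen with earlier results of these data known, so a list's share beside that of all genes may partly reflect that choice. Named genes were the 30 highest, all steroidogenic, maturity and transcription factor genes, the 4 highest members of other lists with defining markers at or near 0, the 5 highest of each family, and the 10 most variable genes at 10 FPKM or more. Jak3 and the other genes named outside this rule were chosen after their values were seen. Positions and promoters came from RefSeq (GRCm38.p6, 99.7% of identifiers matched; 15038 genes with a promoter), and 75-base uniqueness and exon overlap from GENCODE M21. Promoters of Star, Cyp17a1 and Cyp11b1 are not printed. Mitochondrially encoded genes are not analysed here, and a few list members are counted but not reported by name. Alternatives were TPM rescaling, median-of-ratios size factors, other thresholds, the median, and leaving out each library. Tables were computed in Python 3.11.15 with pandas 2.3.3 on numpy 2.4.6, and figures drawn with matplotlib 3.10.9.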

Additional observations from a re-analysis of the deposited data

How the results depend on the processing

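The counts of genes at 1, 10 and 100 FPKM and the shares of the most abundant genes stayed close to the values given when each library was left out in turn: 12064 to 12090 genes at 1 FPKM, 6730 to 6741 at 10 FPKM and 702 to 708 at 100 FPKM. With each library rescaled to TPM, which multiplies every value by more than 2, 1842 genes reached 100. With the median in place of the mean, the 10 most abundant genes held 5.93% of the sum. Without a filter on low values the median coefficient of variation was 6.33%. Of 364 alternative counts of list and family members at 1 FPKM, 12 moved by more than 1.5 times, in 5 lists. Spermatogonial genes numbered 6 and spermatocyte genes 5 in TPM. At 0.5 FPKM, 6 spermatogonial and 3 endothelial genes passed. Over members of at least 0.1 FPKM alone, 22 of 52 list and family medians moved, as xenobiotic metabolism did to 13.4 FPKM from 8.66 FPKM. Of 475 alternative ranks of named genes, 14 moved, in 8 genes. No paired analysis was possible because no groups were compared. For a transcript of 1 kb, levels below about 0.2 FPKM rest on a few fragments by the estimated depth. A longer transcript gives more fragments at the same level. Sequence shared with other genes limits the levels of Insl3, Hbb-bs and Ftl1.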

Other observations

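Genes of protein folding, energy metabolism and protein turnover were described by the same counts. Over all genes, 63.3% reached 1 FPKM, 35.3% reached 10 FPKM and 3.7% reached 100 FPKM. All 16 genes of the unfolded protein response list reached 10 FPKM and 9 reached 100 FPKM, led by Calr, a lectin chaperone of the endoplasmic reticulum, with 667, 680 and 658 FPKM, P4hb, a protein disulphide isomerase, with 443, 444 and 438 FPKM, and Hsp90b1 with 412, 407 and 409 FPKM. All 17 glycolysis genes reached 1 FPKM and 10 reached 100 FPKM, with Aldoa at 534 ± 14.0 FPKM and Pkm at 487 ± 6.34 FPKM behind Gapdh. Each of 37 subunits of respiratory complex I reached 10 FPKM, and Ndufa4, a small subunit named for that complex, led them at 272, 281 and 268 FPKM. Of 48 proteasome subunits 46 reached 1 FPKM, led by Psmb4 at 167 ± 7.73 FPKM.

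Solute carriers were represented by 197 of 364 genes at 1 FPKM or more, which is 54.1% against 63.3% of all genes. The highest were carriers of the inner mitochondrial membrane: Slc25a3, the phosphate carrier, had 307, 313 and 295 FPKM, Slc25a30 had 283, 269 and 287 FPKM, and Slc25a5 and Slc25a4, adenine nucleotide translocators, averaged 254 ± 5.97 and 219 ± 8.95 FPKM. Of 54 serpin genes 26 reached 1 FPKM, led by Serpinh1, the collagen chaperone, at 520 ± 8.53 FPKM and Serpinb6a at 350 ± 8.97 FPKM. Of 12 kallikrein genes of the Klk1 cluster 3 reached 1 FPKM: Klk1b24 had 7.31, 6.83 and 7.23 FPKM, Klk1b21 had 7.36, 7.06 and 6.41 FPKM and Klk1b27 had 3.92, 3.62 and 4.54 FPKM. The most variable gene at 10 FPKM or more was LOC108168679, with 16.6, 14.6 and 0 FPKM.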
